A study of Rattus norvegicus with 6 samples.

Results

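The miR-29 family comprises the microRNAs (miRNAs) listed in this rat lung small RNA table as miR-29a, miR-29b or miR-29c, on either arm of the hairpin. The 6 members, listed as rno-miR-29a-3p, rno-miR-29a-5p, rno-miR-29b-3p, rno-miR-29b-5p, rno-miR-29c-3p and rno-miR-29c-5p, were taken by name out of 693 listed miRNAs. The species prefix is left out from here on. The libraries came from lung tissue of Sprague-Dawley rats, which the methods give as males of 7 to 8 weeks, and no genetic modification is named. In the ischemia reperfusion (IR) group of 3 libraries, rats were anesthetized and ventilated and the left hilum was clamped for 45 min before blood flow was restored. The sham group of 3 libraries, labelled as control, had surgery without clamping. Neither how long the lung was reperfused nor which piece of it was sequenced is stated in the sources read. The comparison of IR with sham asks which miRNAs change in the lung after IR.

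A miRNA hairpin is cut into a duplex whose strands come from its 5p and 3p arms. One strand, the guide, is loaded into an Argonaute protein and pairs with target mRNAs mainly through its seed (bases 2 to 8), and the other, the passenger, is mostly degraded. For miR-29 the 3p strand is the usual guide. It is known for repressing collagens, elastin and fibrillin and the DNA methyltransferases Dnmt3a and Dnmt3b, and it is lowered by TGF-β signalling in fibroblasts, so that it is regarded as an antifibrotic miRNA in lung.

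The mature sequences show which members can act on the same targets and which can be told apart by their reads. All 6 names were matched in RefSeq (rat build GRCr8). They are printed 5′ to 3′ with the seed in capitals, the 3p arms first.
miR-29a-3p: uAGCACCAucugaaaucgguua
miR-29b-3p: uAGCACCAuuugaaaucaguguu
miR-29c-3p: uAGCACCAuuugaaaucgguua
miR-29a-5p: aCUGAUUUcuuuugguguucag
miR-29b-5p: cUGGUUUCacaugguggcuuag
miR-29c-5p: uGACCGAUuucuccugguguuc
miR-29b-1-5p: uUUCAUAUggugguuuagauuu

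The 3 members of the 3p arm share 1 seed, and no other mature miRNA of the RefSeq table has it. Counted from 1 at the 5′ end, miR-29c-3p differs from miR-29a-3p by a single substitution, C10U. Going from miR-29a-3p to miR-29b-3p there are 4 substitutions over the 22 shared positions, C10U, G18A, U21G and A22U. The 5p arms each have a seed of their own. At their best ungapped alignment miR-29a-5p and miR-29c-5p share 17 of 20 bases, and miR-29a-5p and miR-29b-5p share 12 of 21.

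The family has 4 genes in 2 pairs, and RefSeq places both pairs far from each other. Mir29a (chr4:60617955-60618042, minus strand) and Mir29b1 (chr4:60618334-60618414, minus strand) lie 291 bases apart between the protein-coding genes Klf14 and Mkln1. Mir29b2 (chr13:109098831-109098911, plus strand) and Mir29c (chr13:109099359-109099446, plus strand) lie 447 bases apart within the span of the long noncoding RNA gene LOC102550527, between Cd34 and Cd46. These coordinates are those of GRCr8 and serve only to place the genes, and the build used for mapping, not given in the sources used here, may be another. The pairs bear on how the names are read. miR-29b-3p is the same molecule from Mir29b1 and Mir29b2 and carries at its 3′ end a motif known for nuclear import. The name miR-29b-5p belongs to Mir29b2 alone. The 5p arm of Mir29b1, printed above as miR-29b-1-5p, is not among the listed miRNAs, so that Mir29b1 has no 5p value here. By name, miR-29b-5p, miR-29c-5p and miR-29c-3p thus report on the chromosome 13 pair. Likewise miR-29a-3p and miR-29a-5p report on Mir29a of the chromosome 4 pair, and miR-29b-3p on both pairs.

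The libraries held 3775663 to 11248166 miRNA reads each. Levels are given as reads per 1000000 after TMM scaling (normalized CPM), in which 3 reads correspond to 0.253 to 0.855. The mature members are 22 or 23 bases long, so that no length correction was made, but adapter ligation favours some ends over others and levels of different miRNAs compare only roughly. Markers of the lung were present in the libraries: the endothelial miR-126a list summed to 83159 to 111221 normalized CPM and the epithelial miR-200 list to 12890 to 19223. The inflammation-responsive miR-21-5p took 24.2% of the reads of sham replicate 3 and 9.66% to 13.5% of the others.

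The group means of the members ranged from 5.97 to 5100.9 normalized CPM. miR-29a-3p made up 93.1% to 94.8% of all family reads in every library. It stood between the 30th and the 47th place of the 693 miRNAs by level, and the family as a whole took 0.308% to 0.492% of the reads in sham and 0.512% to 0.591% after IR. By mean level in sham the order was miR-29a-3p, miR-29b-3p, miR-29c-3p, miR-29c-5p, miR-29b-5p and miR-29a-5p. In this order miR-29c-3p and miR-29c-5p did not differ beyond their spread in sham (47.6 ± 13.3 and 46.0 ± 7.82 normalized CPM, SD, n = 3), while every other neighbouring pair was separate in all 3 libraries. After IR the order changed at that place. miR-29c-5p was above miR-29c-3p in each IR library.

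**Figure D1:**
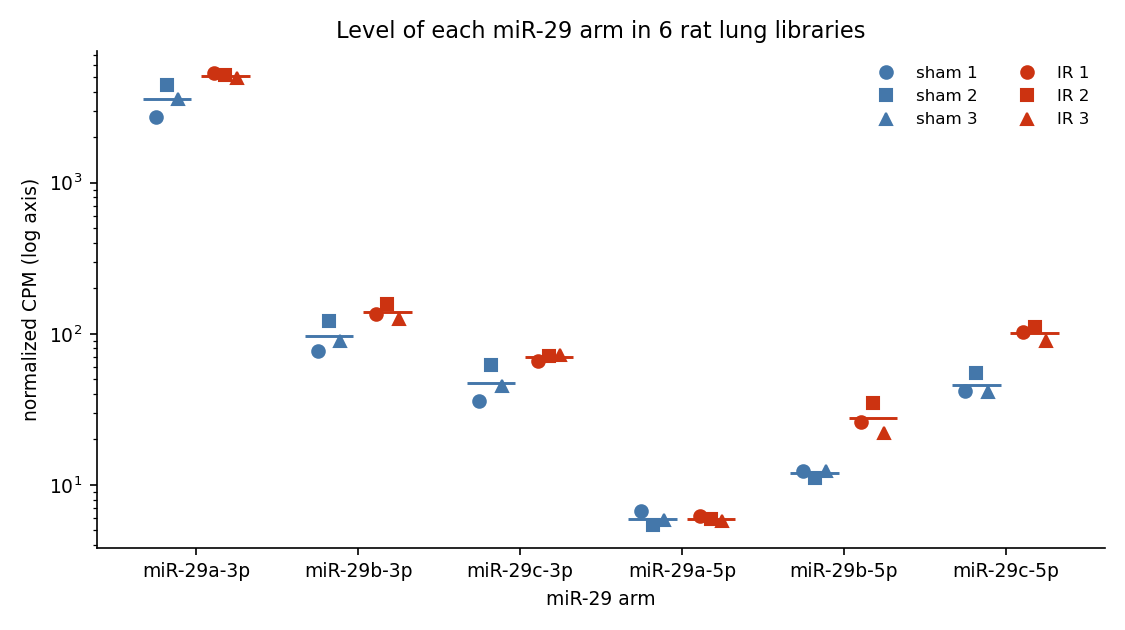
Level in normalized CPM (vertical log axis) of the 6 miR-29 members in each library, with sham in blue, IR in red, the marker giving the replicate and the bar the group mean (n = 3). miR-29b-5p and miR-29c-5p show the widest gap between the groups, and the groups of miR-29a-5p overlap at a mean of 5.97 in both.

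After IR the 5p arms of the chromosome 13 pair rose about 2-fold, the 3p arms were higher by less and without passing the test, and miR-29a-5p was at the sham level. The call used edgeR's quasi-likelihood test with an adjusted p (Benjamini-Hochberg over the 418 miRNAs tested) under 0.05. By it 2 of the 6 members, miR-29b-5p and miR-29c-5p, were higher and 0 were lower. Among all 418 tested miRNAs 7.89% were called higher and 2.63% lower. All 6 members passed the filter on low counts.

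miR-29c-5p, the passenger-side arm of Mir29c, measured 41.6, 55.1 and 41.4 normalized CPM in the sham libraries and 102, 111 and 89.7 in the IR libraries. The lowest IR library was well above the highest sham library. The mean went from 46.0 ± 7.82 to 101 ± 10.9 (SD, n = 3 each), and the fitted log2 fold change was 1.13 with a standard error of 0.20, for which edgeR gave an adjusted p of 0.0198. With 1321 reads over the sham group and 2134 over the IR group it was the better counted of both called members.

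miR-29b-5p, the 5p arm of Mir29b2, measured 12.3, 11.2 and 12.4 normalized CPM in sham and 26.1, 34.8 and 22.2 after IR. The sham libraries lay close together, and IR replicate 2 was the highest of the 6. The mean went from 12.0 ± 0.705 to 27.7 ± 6.45 (SD, n = 3 each). On 335 and 558 reads the log2 fold change was fitted at 1.20, its standard error was 0.23, and edgeR gave an adjusted p of 0.0229.

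miR-29a-5p, the corresponding arm of Mir29a, had few reads, 21 to 68 in a library. Its levels were 6.68, 5.41 and 5.83 normalized CPM in sham and 6.19, 5.99 and 5.73 after IR. The IR values fell inside the range of the sham values. The fitted difference had a 95% interval of -0.57 to 0.57 on the log2 scale (adjusted p = 1.00 from edgeR), so that changes of up to about 1.5-fold either way were not excluded.

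The 3p arms, the usual guide strands, moved almost in parallel. miR-29a-3p measured 2723, 4419.6 and 3554 normalized CPM in sham and 5286, 5124 and 4892 after IR. All IR libraries were above all sham libraries, but sham replicate 2 came close to them. The sham mean of 3566 ± 848 compared with an IR mean of 5100.9 ± 198 (SD, n = 3 each). The log2 fold change was fitted at 0.52, its standard error was 0.18, and edgeR gave an adjusted p of 0.105.

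miR-29b-3p measured 77.4, 121 and 89.3 normalized CPM in sham and 135, 159 and 124 after IR, with the log2 fold change fitted at 0.53 (SE 0.21) and an adjusted p of 0.159 by edgeR. Sham replicate 2 was again next to the lowest IR library. miR-29c-3p measured 35.8, 62.0 and 44.9 in sham and 65.7, 71.0 and 72.6 after IR, with the change fitted at 0.55 (SE 0.23) and an adjusted p of 0.172 by edgeR. In 5 of the 6 members, all but miR-29a-5p, the 3 IR libraries lay above the 3 sham libraries, which held for 17.2% of the tested miRNAs, while 34% had the IR libraries entirely on one or the other side. In the same 5 members an unadjusted p under 0.05 was reached with a higher level, as in 14.1% of the tested miRNAs. The median log2 fold change of the members was 0.54 and that of all tested miRNAs was -0.0088. The members come from paired genes and the 3p arms are close in sequence. Their counts and median are therefore not those of independent miRNAs.

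**Figure D2:**
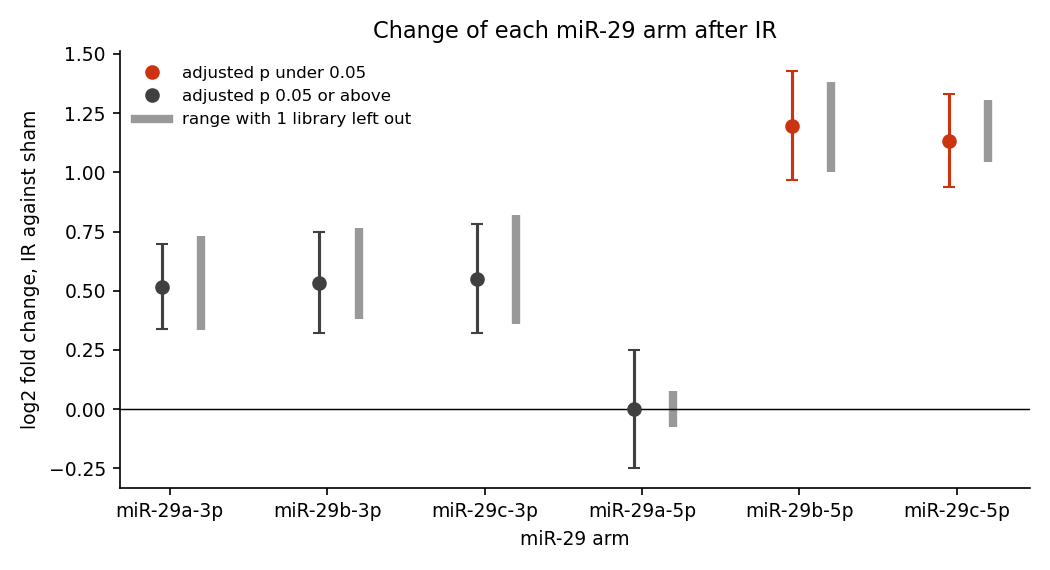
The vertical axis gives the log2 fold change after IR for each of the 6 members, where the bars are the standard error of the fit on 3 libraries per group and the grey bars span the values with 1 library left out. The red points, miR-29b-5p at 1.20 and miR-29c-5p at 1.13, passed edgeR's test at an adjusted p under 0.05, and every member but miR-29a-5p stays above 0 when a library is left out.

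Single libraries decided some of these calls. Without sham replicate 2, which had the highest 3p levels of its group, 5 members were called higher, with miR-29a-3p at 0.73, miR-29b-3p at 0.77 and miR-29c-3p at 0.82 on the log2 scale. Without sham replicate 3 or without IR replicate 2, miR-29c-5p was the only called member. Without IR replicate 1 or without IR replicate 3, 0 were called (adjusted p of miR-29b-5p and miR-29c-5p 0.0531 to 0.0700 from edgeR in those fits). The log2 fold changes of miR-29b-5p and miR-29c-5p stayed between 1.00 and 1.38 in all 6 of these fits.

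The balance of the arms was then compared within each library, since a ratio of reads from 1 library does not depend on the scaling. For miR-29c the 3p arm had 0.861, 1.13 and 1.08 times the reads of the 5p arm in sham and 0.642, 0.637 and 0.809 times after IR. By reads the arms were thus about equal in sham and the 5p arm led after IR, by a 1.47-fold shift. Adapter ligation makes the comparison of both sequences rough. How far miR-29c-3p was counted apart from miR-29a-3p was not tested. For miR-29b the 3p arm had 6.27, 10.9 and 7.18 times the reads of the 5p arm in sham and 5.16, 4.56 and 5.62 times after IR, a shift towards the 5p arm by 1.55-fold. That ratio sets the product of both miR-29b genes against the 5p arm of Mir29b2 only. For miR-29a the shift went the other way: the 3p arm had 408, 817 and 610 times the reads of the 5p arm in sham and 854, 856 and 854 times after IR, a 1.45-fold increase. The groups did not overlap for these ratios of reads. How often the arm ratios of other hairpins separate the groups was not counted. With a pseudocount of 10 reads on both arms the groups of miR-29a did overlap, at 343, 702 and 512 in sham and 687, 580 and 744 after IR (exact two-sided permutation p = 0.3), while those of miR-29b and miR-29c stayed apart.

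The ratios between paralogs of the same arm were also compared within each library. miR-29c-3p had 1.24% to 1.48% of the reads of miR-29a-3p and miR-29b-3p 2.51% to 3.09%, with overlapping groups and differences of 0.044 and 0.011 on the log2 scale. The reads of miR-29b-5p per read of miR-29a-5p went from 1.85, 2.07 and 2.13 in sham to 4.22, 5.81 and 3.87 after IR. Those of miR-29c-5p went from 6.23, 10.2 and 7.12 to 16.5, 18.6 and 15.7. In both the IR libraries lay above the sham libraries, at 2.27-fold and 2.20-fold. Both ratios have miR-29a-5p as the denominator, which had 21 to 68 reads in a library and a fitted change next to 0. They thus largely restate the changes of miR-29b-5p and miR-29c-5p and are no separate evidence. How often such ratios of other miRNAs separate the groups was not counted. Over the 7 ratios the exact two-sided permutation test gave p = 0.1 for those 2 and for the 3 arm ratios (adjusted p = 0.14), the smallest value that 3 against 3 libraries allow, and p = 0.8 and 0.7 for the 3p paralogs (adjusted p = 0.8). A p under 0.05 was out of reach in this design.

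**Figure D3:**
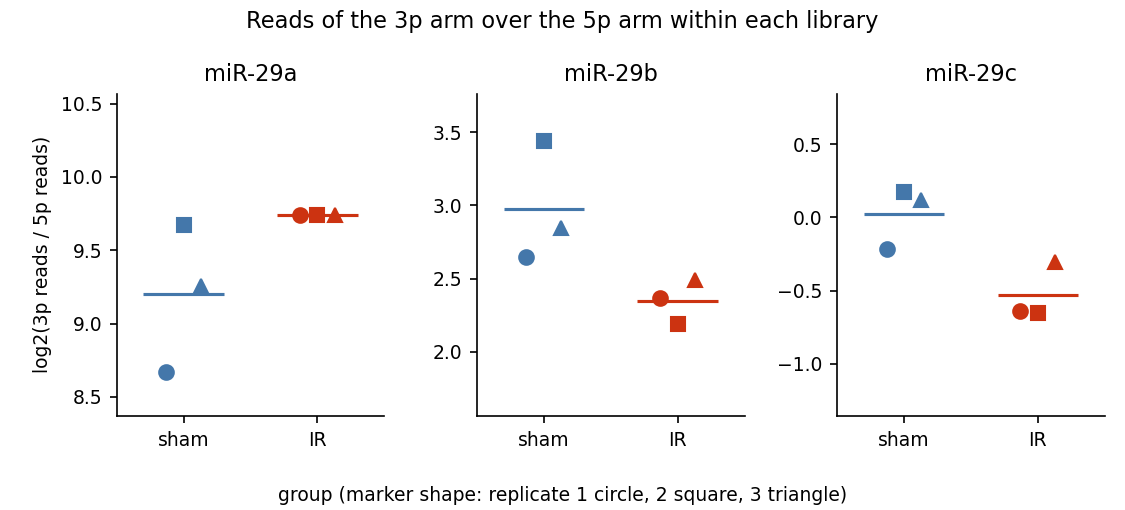
Log2 of the reads of the 3p arm over those of the 5p arm (vertical axis, the same span of values in each panel) in the 3 sham and 3 IR libraries, with the group means as bars. The ratio is higher after IR for miR-29a and lower for miR-29b and miR-29c, with no overlap between the groups as plotted, and those of miR-29a overlap once a pseudocount of 10 reads is added.

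Against other hairpins the family stood near both ends of the distribution. For 116 names both arms were tested, and the log2 fold change of the 5p arm minus that of the 3p arm had a median of 0.021, with quartiles of -0.22 and 0.21. The difference was 0.66 for miR-29b and 0.58 for miR-29c, in place 9 and 11 from the top, and -0.52 for miR-29a, in place 106. This is a description of these libraries, and no test was made on the places. Names with the same fitted change on an arm, such as miR-130a-3p and miR-3590-5p (both -0.29), were each counted.

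**Figure D4:**
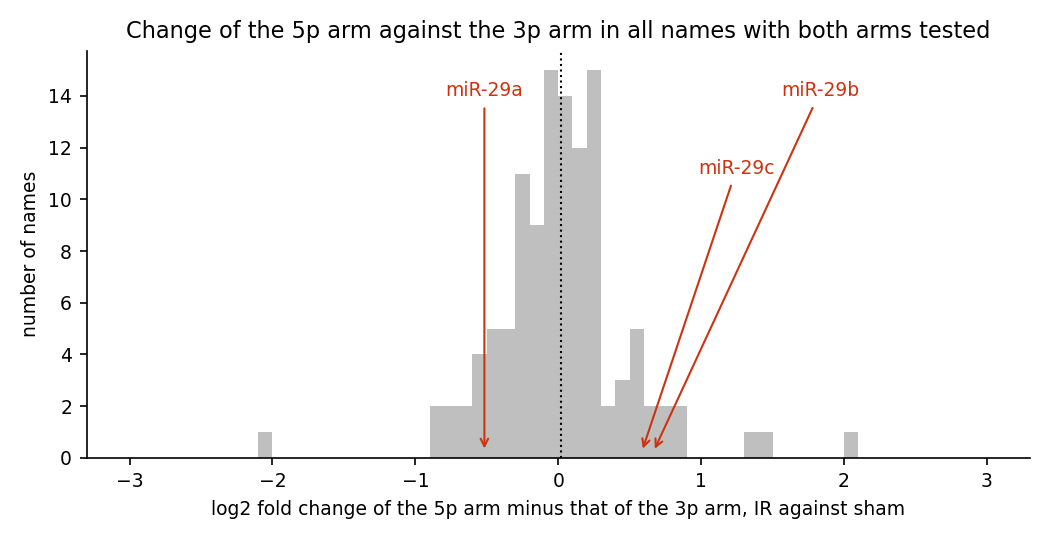
Number of names (vertical axis) by the log2 fold change of the 5p arm minus that of the 3p arm, IR against sham, over the 116 names with both arms tested. The dotted line is the median of 0.021, and the arrows mark miR-29a at -0.52 and miR-29b and miR-29c at 0.66 and 0.58.

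The 3p members also have annotated partners on the opposite strand, and these names were listed with reads. RefSeq places Mir3556a over Mir29a, Mir3587 over Mir29b1 and Mir3556b over Mir29c. The mature sequences below are the reverse complement of a 3p member, and the capitals mark the bases opposite its seed.
miR-3556a: cgauuucagaUGGUGCUa
miR-3556b: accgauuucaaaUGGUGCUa
miR-3587: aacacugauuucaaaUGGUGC

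miR-3587 (opposite miR-29b-3p, bases 3 to 23) was listed with 615, 1367 and 796 reads in sham and 892, 556 and 1473 after IR, against 614, 1369 and 797 and 893, 556 and 1477 for miR-29b-3p. The counts of both names differed by at most 4 reads in a library. miR-3556b (opposite miR-29c-3p, bases 1 to 20) had 96.1% to 98.3% of the reads of miR-29c-3p. miR-3556a (opposite miR-29a-3p, bases 1 to 18) had 5.19% to 10.3% of the reads of miR-29a-3p. The use of strand in counting, not given in the sources used here, bears on these pairs, and reads of miR-29b-3p and miR-29c-3p cannot be told apart from those of their antisense names. Their values are uncertain to that extent. The shares over all tested miRNAs count the antisense names as separate miRNAs. No miRNA of the RefSeq table is in its whole length the reverse complement of a 5p member. With the 3 antisense names left out, a choice made after seeing their counts, miR-29b-5p and miR-29c-5p were again the 2 called members, at 1.20 and 1.14 on the log2 scale. The treatment of mismatches is not given either. With 1 base between miR-29a-3p and miR-29c-3p and near-constant shares of reads, how far miR-29c-3p was counted apart from miR-29a-3p was not tested.

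**Figure D5:**
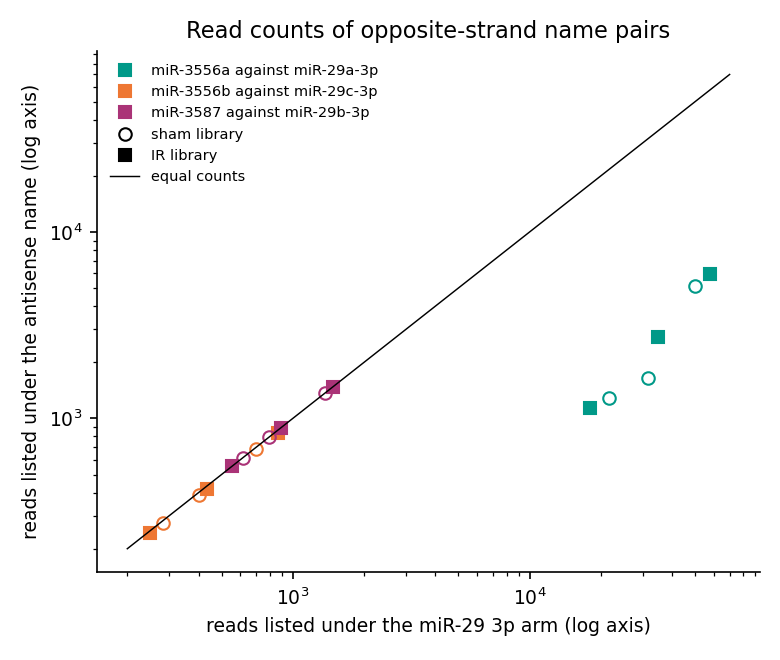
Reads listed under miR-3556a, miR-3556b and miR-3587 (vertical log axis) against those of the miR-29 3p arm on the opposite strand (horizontal log axis), 1 point per library. The points of miR-3587 and miR-3556b sit on the line of equal counts, within 4 and 23 reads, and those of miR-3556a lie far below it.

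The miRNAs with the pattern most like the family were sought among 272 tested miRNAs with a mean of at least 10 normalized CPM, by Pearson's r over the 6 libraries on log2(normalized CPM + 1). Nearest to the mean of the 3p members were miR-3556b (r = 0.986), miR-192-5p (0.984) and miR-3587 (0.979). The first and the last of these are the antisense names, and miR-192-5p is a miRNA of gut, liver and kidney epithelium. Nearest to the mean of the 5p members were miR-139-5p (0.978), the striated muscle miR-1-3p (0.975) and miR-3571 (0.974), which lists nearly the same reads as miR-1-3p. By Spearman's rho 2 of the 3 nearest to the 3p arms and 0 of the 3 nearest to the 5p arms were again among the first 3. The 6 points share 2 groups and their libraries, so that r also reflects the difference between the groups.

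The other miRNAs of the fibrosis pathway were read from lists of miRNAs known to promote or oppose fibrosis in lung. Of the 6 promoting miRNAs 5 were tested, and 0 were higher and 0 lower by edgeR's quasi-likelihood test, with a median log2 fold change of -0.047. miR-21-5p, a promoting miRNA, was at -0.69 (standard error 0.35), miR-199a-5p at -0.42 (standard error 0.14) and miR-145-5p at 0.037 (standard error 0.26). Of the 8 opposing miRNAs all were tested and 0 were called, with a median of 0.12. Among them miR-30a-5p was at 0.33 (standard error 0.19), miR-26a-5p at -0.035 (standard error 0.15) and miR-200a-3p at 0.34 (standard error 0.13). Members of both lists went either way. The tested promoting miRNAs ran from -0.69 (miR-21-5p) to 0.24 (miR-155-5p), and the opposing ones from -1.09 (miR-486) to 0.55 (miR-200b-3p). Among all tested miRNAs 10.5% were called in either direction, and counts of 0 in lists this short are near that share.

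In whole tissue a change in the number of cells of a type and a change in RNA per cell cannot be told apart. Marker lists were therefore summed beside the family, and their calls are to be read against the 7.89% of all tested miRNAs called higher and the 2.63% called lower. The epithelial list held 5 miRNAs of the miR-200 family, with 0 of 5 called. Its sum was 12890 to 15883 normalized CPM in sham and 18673 to 19223 after IR, with no overlap. Its members ranged from 0.0046 (miR-141-3p) to 0.55 (miR-200b-3p) on the log2 scale. Among all tested miRNAs taken singly, 34% had the IR libraries entirely above or entirely below the sham libraries. The fibroblast and mesenchyme list (1 of 3 tested lower, miR-199a-3p, at -0.65 on the log2 scale with adjusted p = 0.0229 from edgeR) went from 3225 to 3687 in sham to 2332 to 2486 after IR. The lymphocyte list (1 of 2 lower, miR-150-5p, at -0.77 with adjusted p = 0.0229 from edgeR) measured 1678 to 1743 in sham and 959.9 to 1145 after IR. The myeloid and leukocyte list (0 of 4 called) measured 1812 to 3046 and 1315 to 1645. The striated muscle list (1 of 5 tested higher, miR-1-3p, at 1.31) overlapped between the groups at 139 to 173 and 146 to 198. Its miR-499-5p averaged 107 normalized CPM in sham and 111 after IR, and its miR-133a-3p 30.0 and 29.8. The heart miRNA miR-208a-3p of the same list had 1 read in all. The smooth muscle, endothelial, ciliated airway and erythroid lists had 0 called of 4, 2, 6 and 4 tested, and their sums overlapped. The part of these shifts in the values of the miR-29 members was not tested.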

How the data were processed

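Small RNA of rat lung tissue was sequenced in 3 IR and 3 sham libraries. The authors deposited whole read counts per miRNA and, beside them, TPM values, which equal the counts per 1000000 listed miRNA reads with no length term. Per the labels Bowtie was used, with its version, the genome build, the annotation and the counting rules not given in the sources used here. Groups and replicate numbers came from the sample titles. The count of value columns with no sample was 0.

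Counts of the whole table were filtered with filterByExpr (minimum count 10, minimum total 15), scaled by TMM and tested with edgeR 4.0.16 in R 4.3.3, and only the members were read out. The standard error is the log2 fold change divided by the square root of F. The 95% interval uses the t quantile of the fit. limma 3.58.1, DESeq2 1.42.0, other scalings and filters, and leaving out each library were alternatives. Ratios used reads with no pseudocount and scipy 1.17.1. Markers and lists are described by counts, medians and sums. Counts for IR against sham were simulated in a single draw with a common dispersion for all miRNAs. Of 427 miRNAs tested, 60 were changed 2-fold and 68 were changed 4-fold. The test called 66.7% of 2-fold and 98.5% of 4-fold changes and 1.34% of unchanged miRNAs. Recovery in the real libraries may differ, since their dispersions and share of changed miRNAs need not be the same. The reads carry no molecular identifiers. Nothing in the labels says that replicates are separate animals, but the study calls them biological replicates, and they were treated as such. p-values otherwise measure only the spread between these samples.

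The members, the lists and the naming rule (all members, of each list the most abundant and the called miRNAs, and the 3 most similar patterns per arm) were chosen with earlier results of these data known. miR-208a-3p and the list members given as ends of a range were named after their values were seen. Promoters were not used.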

Additional observations from a re-analysis of the deposited data

How the results depend on the processing

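The number of members called higher was 2 with RLE scaling, library totals, no filter, 10 reads in every library, DESeq2, limma-voom, limma-trend on log2(TPM + 1) and the antisense names left out, and 0 members were called lower in every setting run. It was 5 at an unadjusted p and ranged from 0 to 5 with 1 library left out. Over all miRNAs the number higher was 33, and it became 19 with 10 reads in every library, 59 at an unadjusted p and 2 to 40 with 1 library left out. The number lower was 11, and it became 7 with 10 reads in every library and with limma-voom, 26 with DESeq2, 51 at an unadjusted p and 0 to 17 with 1 library left out. With the replicate number as a block the counts were 0 members, 0 higher and 0 lower over all miRNAs (adjusted p of miR-29b-5p 0.0918 and of miR-29c-5p 0.0692 from edgeR, log2 fold changes 1.18 and 1.14). Deviations of same-numbered libraries from their group means correlated at -0.39 to -0.18, and no library correlated best with its own number. With 3 libraries in a group such deviations are tied to one another, so that a pairing by number was not settled. For the ratios, pairing by number leaves the difference as it is by construction, and an exact sign permutation of 3 pairs cannot go below p = 0.25.

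The log2 fold change of miR-29a-5p, which is next to 0, turned positive with RLE scaling (0.0012), library totals (0.031), no filter (0.030), 10 reads in every library (0.051), limma-voom (0.011), limma-trend (0.027), the replicate block (0.00062) and the antisense names left out (0.0073), and ranged from -0.074 to 0.076 with 1 library left out. The difference of miR-29b-3p over miR-29a-3p turned to -0.032 with reads summed over each group and ranged from -0.082 to 0.059 with 1 library left out, and that of miR-29c-3p over miR-29a-3p ranged from -0.015 to 0.11. The 3 arm ratios and the ratios of the 5p paralogs kept their direction in the 8 alternatives each besides the block, and with a pseudocount of 10 reads the groups of the miR-29a arm ratio overlapped (0.42, exact permutation p = 0.3). With 1 library left out they ranged from 0.28 to 0.78 for miR-29a, -0.79 to -0.40 for miR-29b and -0.68 to -0.48 for miR-29c, and from 1.00 to 1.30 for miR-29b-5p over miR-29a-5p and 0.99 to 1.34 for miR-29c-5p over miR-29a-5p. The causes were not tested. miR-29a-5p had 21 to 68 reads in a library.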
